A study of Rattus norvegicus with 167 samples.

Results

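Heat shock proteins and J-domain chaperones were followed in rat spinal cord after complete transection. Members were the genes whose symbol stands alone for a probe set in the array annotation and begins with Hspa, Hspb, Hspd, Hspe, Hsph, Hsp and a digit, or Dnaj, with the basement membrane proteoglycan Hspg2 left out. The rule found 64 of 14217 genes, and where a gene had several probe sets the one with the highest mean over all arrays was used. By role they were 7 small heat shock proteins, 12 Hsp70 and Hsp110 proteins, 2 Hsp90 proteins, the 2 subunits of the mitochondrial chaperonin, 4, 12 and 23 J-domain proteins of classes A, B and C, and 2 Hsp-binding cofactors. The filter on low values passed 61 of them, and Dnajb7, Hspa1l and Hspb9 were not tested. Hspb3 passed through 3 arrays and Hspb2 through 4, all of them NT3 arrays of the lesion site, so these members had to be high there and their values are given as a description. Hsp90aa1, Hspa8 and Hspa1b had no probe set with a single symbol and were not analysed here.

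The animals were adult female Wistar rats. The cord was cut completely at thoracic level T7/8 and a piece was taken out. A tube of chitosan, a sugar polymer from shells, filled the gap either with neurotrophin-3, a growth factor for neurons, inside it (NT3) or with nothing inside it (ET), and in the lesion control (LC) the gap stayed unfilled. Tissue was taken on days 1, 3, 10, 20, 30, 60 and 90 from the cord just rostral of the gap, from the lesion site, and from the cord just caudal of it. The rostral segment gave 21 NT3, 20 ET and 21 LC arrays, the lesion site 18 NT3, 3 ET and 18 LC arrays, and the caudal segment 21 of each, beside 3 arrays of uninjured cord. Groups of 1 segment, treatment and day held 3 arrays, except rostral ET on day 10 with 2. Lesion sampling began on day 3, and ET was sampled there on day 3 only. The labels give neither the level of the uninjured cord nor whether replicates are separate animals, so p-values measure the spread between these samples, which may be technical.

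Heat shock proteins bind unfolded or damaged proteins. Hsp70 proteins do so with energy from ATP, J-domain proteins bring them clients and start that hydrolysis, Hsp110 proteins exchange their nucleotide, and small heat shock proteins hold clients without ATP until others refold them. The cytosolic set is switched on by heat shock factor at heat shock elements in its promoters, and the endoplasmic reticulum set by the unfolded protein response at a separate element. In the nervous system Hspb1 is best known from reactive astrocytes and injured neurons, and Dnajc6 and Dnajc5 from synapses.

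The promoters below carry these elements in members whose values the results turn on. They come from the RefSeq annotation of assembly GRCr8, which gave a window for 53 of the 64 members, reaching from 250 bases before to 50 bases after the annotated start. The endoplasmic reticulum stress element was searched on both strands as CCAAT and CCACG with any 9 bases between them, and it lay in 3 of these 53 windows (5.66%), against 0.0657% of 33469 windows of all genes. All 3 belong to chaperones of the endoplasmic reticulum, and capitals mark the fixed letters of the element.
Hspa5, chr3:38452953-38453011, plus strand: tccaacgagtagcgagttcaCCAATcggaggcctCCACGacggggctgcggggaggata
Hsp90b1, chr7:23012431-23012489, minus strand: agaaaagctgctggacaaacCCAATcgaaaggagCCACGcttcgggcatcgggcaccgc
Dnajc3, chr15:102432514-102432572, plus strand: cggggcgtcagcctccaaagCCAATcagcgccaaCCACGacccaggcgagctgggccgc
The element began 43 bases before the annotated start of Hspa5, 176 before that of Hsp90b1 and 133 before that of Dnajc3.

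A heat shock element of 3 alternating units was searched on both strands as GAA, TTC and GAA with any 2 bases between neighbours. It lay in 4 of the 53 windows (7.55%), against 0.798% of all windows, and the 4 were Dnaja1, Hsph1, Hspd1 and Hspe1. Hspd1 and Hspe1 are neighbours that start away from each other, and their windows share 211 bases. Capitals mark the units.
Dnaja1, chr5:60638393-60638445, plus strand: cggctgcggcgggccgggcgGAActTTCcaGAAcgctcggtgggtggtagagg
Hsph1, chr12:10427312-10427364, plus strand: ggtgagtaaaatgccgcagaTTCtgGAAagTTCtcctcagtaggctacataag
Hspe1, chr9:64084242-64084294, plus strand: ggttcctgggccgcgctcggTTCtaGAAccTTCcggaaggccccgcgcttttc
The shorter pair of units GAANNTTC, which reads the same on both strands and overlaps the longer element, lay in 11 of the 53 windows (20.8%) and in 8.59% of all windows. The opposite pair TTCNNGAA lay in 9 (17.0%) and in 8.77% of all windows. Hspb1, Hspb8 and Dnajb1, all higher on the early days, carry the first pair, and so does Hspb6, which was lower at the lesion site. The opposite pair lay in Hspb6, Hspa2, Hspa4l and Dnajc27, all lower at the lesion site. Carriers of a pair thus went both ways. The stretches of Hspb1, Hspb8 and Dnajb1 follow.
Hspb1, chr12:26432403-26432450, minus strand: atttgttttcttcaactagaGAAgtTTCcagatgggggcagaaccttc
Hspb8, chr12:45837265-45837312, plus strand: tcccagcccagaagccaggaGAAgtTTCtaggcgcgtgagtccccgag
Dnajb1, chr19:41431125-41431172, minus strand: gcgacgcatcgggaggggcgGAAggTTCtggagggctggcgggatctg
A match is a run of letters and not a measured binding site. The window of Hspa1a held none of these letters, which says nothing of the factor.

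Values are the authors' log2 expression values, differences are log2 differences with their standard errors, and folds are their antilogs. A probe set's value was compared between arrays only, never with another probe set. A gene was called when its adjusted p lay under 0.05 with limma and Benjamini-Hochberg adjustment over all 12044 tested genes, and every adjusted p below is of that kind. Of the members named below, Dnaja1, Dnajb2, Dnajb12, Dnajb14, Dnajc1, Dnajc5, Hsp90ab1 and Hspa2 had other probe sets that did not all share the direction in some comparisons that called them. Array medians ran from 7.10 to 7.25. In comparison with uninjured cord the 12 neuron markers tested were called lower in LC in all 3 segments and all 3 periods, with medians from -4.56 at the lesion site on the intermediate days to -0.79 in the caudal segment on the early days. The 8 fibroblast and matrix markers were called higher at the lesion site in every period, and the 4 neutrophil markers were higher on the early days in all 3 segments. In bulk tissue, fewer cells of a type and less RNA per cell cannot be told apart. The difference between 3′ and 5′ probe sets of beta-actin, a sign of RNA quality, was 1.35, 1.5 and 2.29 in the uninjured arrays, against 0.83 to 1.81 in rostral LC arrays. Its part in the results was not tested beyond a fit with it as a covariate. In earlier work on these data 3 arrays stood apart. They were replicate 5 of lesion LC on day 20, replicate 1 of lesion NT3 on day 3, and replicate 2 of uninjured cord. Without them 358 of 365 called values of named members were still called, and the 7 others are given with their members. RT1-CE10, a gene described below, divided the arrays by whole groups, so some values are also given over the days on which the groups compared were alike in it.

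Transection was followed by a broad change of the chaperones, about as common among members as among all genes. On the early days (1 and 3, at the lesion site day 3 alone) 41 of 61 members (67.2%) were called in rostral LC against uninjured cord, where 67.8% of all tested genes were called. Of these 28 were higher and 13 lower, beside 36% and 31.8% of all genes. Lesion LC had 41 called, 22 higher and 19 lower, beside 74.4% of all genes with 40.8% higher and 33.5% lower. Caudal LC had 35 called, 27 higher and 8 lower, beside 65% of all genes with 34.3% higher and 30.7% lower. On the intermediate days (10, 20 and 30) rostral LC had 33 called, 16 higher and 17 lower, beside 60.5% of all genes with 29.1% higher and 31.4% lower. Lesion LC had 48, 21 higher and 27 lower, beside 79% with 41.9% higher and 37.1% lower, and caudal LC had 32, 14 higher and 18 lower, beside 61.7% with 29.2% higher and 32.5% lower. On the late days (60 and 90) rostral LC had 29, 13 higher and 16 lower, beside 53.6% with 24.9% higher and 28.7% lower. Lesion LC had 49, 22 higher and 27 lower, beside 75.4% with 40.4% higher and 35% lower, and caudal LC had 32, 15 higher and 17 lower, beside 56.7% with 25.2% higher and 31.5% lower. All 9 comparisons share the same 3 uninjured arrays. Without the arrays that stood apart the late counts were 22, 47 and 22.

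**Figure D1:**
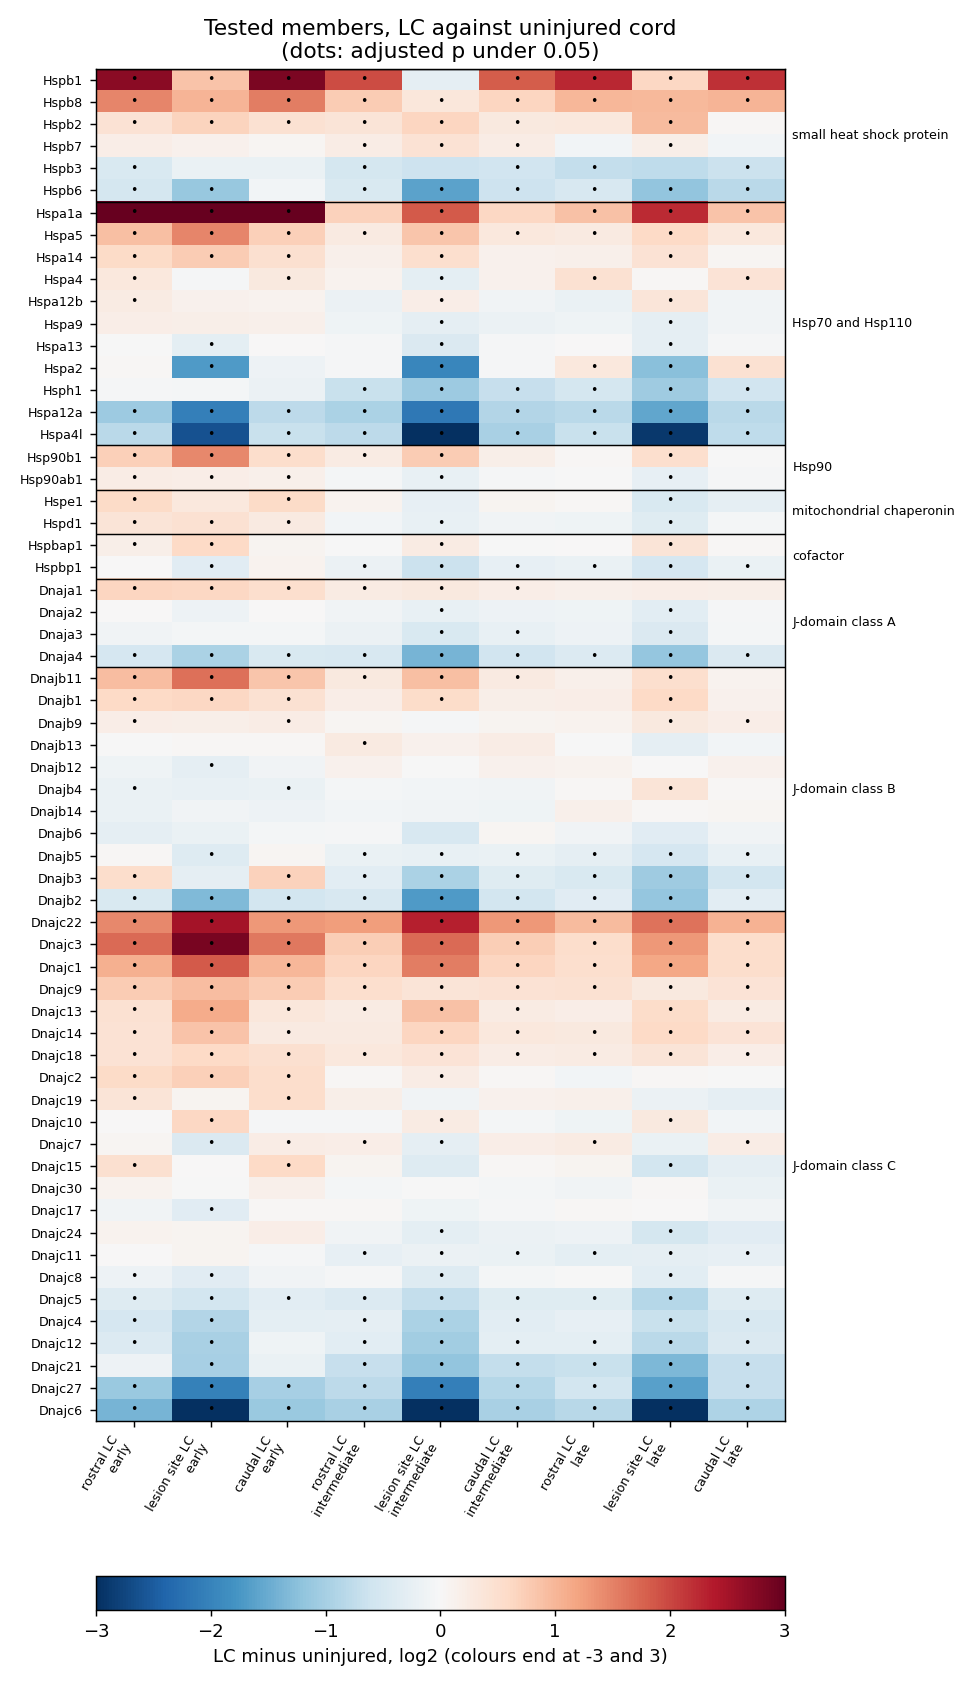
Log2 difference of LC from uninjured cord for the 61 tested members (rows, by class) in 3 segments and 3 periods (columns). Colours end at -3 and 3, and dots mark an adjusted p under 0.05. Hspa1a and Hspb1 are high on the early days, and Dnajc6 and Hspa4l are low at the lesion site in all 3 periods.

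Among the small heat shock proteins, Hspb1 and Hspb8 rose in the cord on both sides of the gap and stayed high. Of the 6 tested, 5 were called in rostral LC on the early days, 3 higher and 2 lower, 4 at the lesion site, 3 higher and 1 lower, and 3 in caudal LC, all higher, beside the 67.8%, 74.4% and 65% of all genes called there. These counts include Hspb2, higher in each segment, and Hspb3, lower in rostral LC. Both lay under the filter on low values in every LC and uninjured array. Hspb1, the most studied small heat shock protein and a stabiliser of actin filaments, had log2 values in rostral LC on the early days with a lowest of 13.22, a median of 13.48 and a highest of 13.61, against 10.54, 10.78 and 10.85 in the uninjured arrays. The 6 LC arrays all lay above the uninjured ones, and the difference of 2.71 (SE 0.176) was 6.56-fold with an adjusted p of 2.76e-18. In caudal LC the early values were 13.49 at the lowest, 13.53 at the median and 13.61 at the highest, and the difference was 2.82 (SE 0.165, 7.06-fold, adjusted p 7.65e-20). On the late days Hspb1 was still 2.25 higher in rostral LC and 2.19 higher in caudal LC, with lowest values of 12.78 and 12.68, again clear of the uninjured arrays.

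Hspb1 at the lesion site itself stayed nearer to uninjured cord. The 3 LC arrays of day 3 read 12.14, 11.68 and 10.92, all above the uninjured arrays, with a difference of 0.86 (SE 0.301, 1.81-fold, adjusted p 0.0111). Without replicate 1 of that group the difference was 0.58 with an adjusted p of 0.108. On the intermediate days the lesion values ran from 9.28 over 10.69 to 10.86, overlapped the uninjured arrays and differed by -0.28 (adjusted p 0.303). On the late days they ran from 10.65 over 11.29 to 11.91 with a difference of 0.62 (adjusted p 0.0336), which became 0.65 with an adjusted p of 0.058 without the 3 arrays that stood apart, 0.63 with an adjusted p of 0.0524 with the beta-actin covariate and 0.52 with an adjusted p of 0.123 without uninjured replicate 1. Leaving out any of 4 single arrays ended that call (adjusted p 0.0586 to 0.123). Astrocyte markers moved too: at the lesion site on day 3 all 8 were called lower, with a median of -2.24, and the list's mean level over all days ran from 8.07 to 9.62 in lesion LC, against 10.66 to 10.79 in uninjured cord. Beside the gap, where Hspb1 was high, the list ran from 9.73 to 10.63 in rostral LC and 9.79 to 10.64 in caudal LC. Those levels also lay under all uninjured arrays. The part of the astrocyte list in the Hspb1 values was not tested.

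Hspb8, a partner of the co-chaperone Bag3 in selective autophagy, rose in all 3 segments. Its early values were 10.39, 10.71 and 11.22 (lowest, median and highest) in rostral LC and 10.34, 10.81 and 11.25 in caudal LC, against 9.33, 9.19 and 9.35 in the uninjured arrays. The groups did not overlap, and the differences were 1.47 (SE 0.0884, adjusted p 1.85e-19) in rostral LC and 1.54 (SE 0.104, adjusted p 1.19e-17) in caudal LC. The lesion arrays of day 3 read 10.25, 10.47 and 10.20, which was 1.02 higher (SE 0.129, adjusted p 2.06e-08). The late differences were 1.00, 0.97 and 1.02 in rostral, lesion and caudal LC. Bag3 itself, from the list of other chaperones, was 0.65 higher in rostral LC and 0.59 in caudal LC on the early days (adjusted p 1.03e-05 and 4.25e-07).

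Hspb6, abundant in muscle, moved the opposite way. At the lesion site it read 7.45, 7.5 and 8.75 on day 3, against 8.81, 9.11 and 9.18 in uninjured cord, a difference of -1.13 (SE 0.288, adjusted p 0.000782) with no overlap. The intermediate lesion values of 6.84, 7.49 and 7.71 lay lower still, with a difference of -1.61 (adjusted p 2.17e-07), and the late difference was -1.18 (adjusted p 8.53e-05). In rostral LC the differences were -0.52, -0.47 and -0.48 in the 3 periods. Hspb3, which lay under the filter on low values in every LC and uninjured array, gave -0.46, -0.52 and -0.72 in rostral LC, and the early value became -0.37 with an adjusted p of 0.0922 without the arrays that stood apart. Hspb2, also under that filter in these arrays, ran from 5.73 to 6.47 in lesion LC on the late days, against 4.56 to 5.41 in uninjured cord, a difference of 0.95. Cryab, the small heat shock protein whose symbol falls outside the rule, was 0.53 higher in rostral LC and 0.57 in caudal LC on the early days and differed by -2.16 at the lesion site on the intermediate days (adjusted p 4.35e-09).

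**Figure D2:**
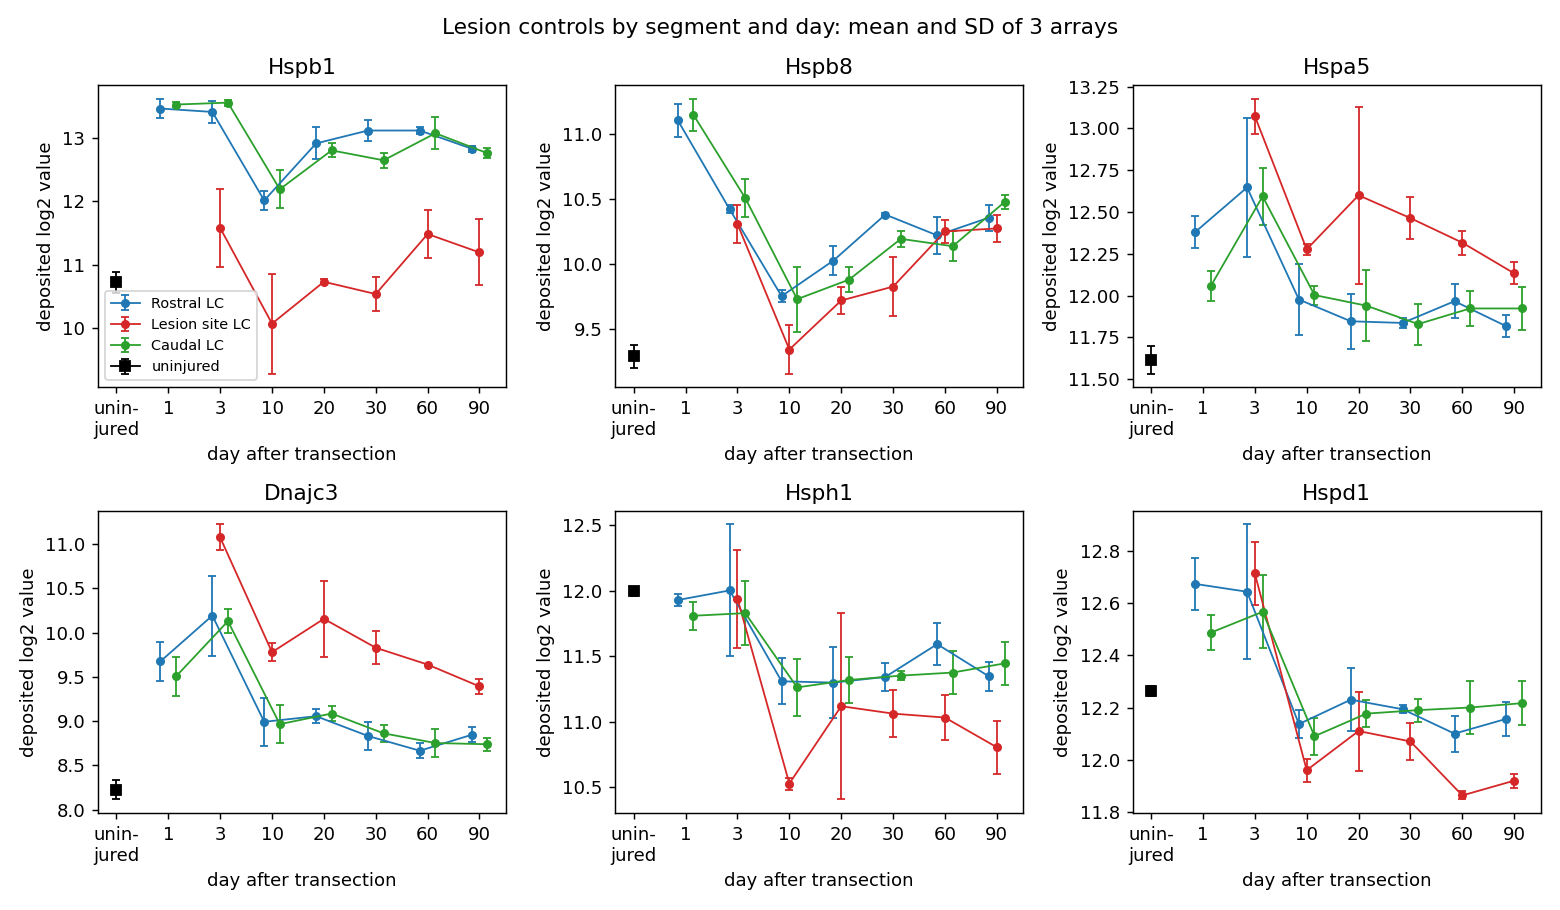
Log2 values of Hspb1, Hspb8, Hspa5, Dnajc3, Hsph1 and Hspd1 in LC by day after transection and segment, as means with SD (n = 3 arrays), with uninjured cord as a square at the left. Hspb1 stays above uninjured cord in the rostral and caudal segments, with late lows of 12.78 and 12.68, and Hsph1 lies below it on the late days.

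Of the cytosolic Hsp70 proteins, stress-inducible Hspa1a showed the largest early rise among the members. Its rat copy Hspa1b is nearly identical, so its probe set may read both. The early values were 9.70, 10.65 and 12.14 in rostral LC and 9.38, 10.69 and 11.30 in caudal LC (lowest, median and highest), and the day 3 lesion arrays read 11.35, 10.72 and 10.56, against 7.14, 7.49 and 6.98 in uninjured cord. Every LC array lay above the uninjured ones. The differences were 3.62 in rostral LC (SE 0.357, 12.3-fold, adjusted p 1.73e-12), 3.67 at the lesion site (SE 0.351, 12.8-fold, adjusted p 4.8e-11) and 3.22 in caudal LC (SE 0.323, 9.32-fold, adjusted p 3.99e-12). On day 1 RT1-CE10 averaged 10.8 in rostral and 10.59 in caudal LC, against 6.58 in uninjured cord. No early LC group of any segment was alike with uninjured cord in RT1-CE10. The early comparisons with uninjured cord could therefore not be run over alike days. Whether what divided the groups in RT1-CE10 had a part in the early Hspa1a values was not tested.

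After the early days Hspa1a was called higher at the lesion site in both later periods and beside the gap on the late days alone. On the intermediate days rostral LC ran from 7.24 over 7.91 to 8.6 and caudal LC from 7.30 over 7.97 to 8.41, overlapping uninjured cord, with differences of 0.69 (adjusted p 0.0707) and 0.63 (adjusted p 0.0677). The lesion arrays ran from 8.15 over 8.67 to 10.58, a difference of 1.85 (3.61-fold, adjusted p 6.51e-07). On the late days the lesion arrays still ran from 8.98 over 9.33 to 10.11, a difference of 2.24 (4.73-fold, adjusted p 6.55e-08). Late values beside the gap were 0.87 higher in rostral LC (adjusted p 0.0352) and 0.86 in caudal LC (adjusted p 0.0212). The caudal call was lost without uninjured replicate 1 (adjusted p 0.06) or 3 (adjusted p 0.0922), and leaving out any of 5 single arrays ended the rostral call (adjusted p 0.0557 to 0.124). The late rostral and caudal differences were 0.79 (adjusted p 0.112) and 0.75 (adjusted p 0.0876) over the days with RT1-CE10 alike. Over all days that both had, lesion LC lay 1.13 above the neighbouring LC segments (adjusted p 1.98e-12).

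The other Hsp70 and Hsp110 members moved in both directions. On the early days 7 of its 11 tested members were called in rostral LC, 5 higher and 2 lower, 7 at the lesion site, 3 higher and 4 lower, and 6 in caudal LC, 4 higher and 2 lower, again beside 67.8%, 74.4% and 65% of all genes. Hspa4l, an Hsp110-type protein, had lesion values of 8.44, 8.40 and 7.93 on day 3, against 11.07, 10.63 and 10.91 in uninjured cord. That was a difference of -2.62 (0.163-fold, adjusted p 4.06e-10), and on the late days it was -2.88 (0.136-fold). Hspa12a, a distant Hsp70 relative known from neurons, read 9.12, 9.54 and 8.61 at the lesion site on day 3, against 11.19, 11.10 and 11.12, a difference of -2.05.

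Hspa2, the Hsp70 best known from testis and also made by neurons and glia, read 9.07, 8.92 and 8.03 at the lesion site on day 3, against 10.62, 10.19 and 10.33, a difference of -1.71 (0.307-fold, adjusted p 1.27e-06). Late values ran from 8.78 to 9.53 at the lesion site, a difference of -1.26, while beside the gap they were higher than in uninjured cord, by 0.31 in rostral LC (adjusted p 0.0289) and 0.45 in caudal LC (adjusted p 0.00903). Without the arrays that stood apart the caudal difference was 0.35 with an adjusted p of 0.084, and with the beta-actin covariate it was 0.20 with an adjusted p of 0.444.

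Hsph1, the inducible Hsp110, was not called on the early days, with differences of -0.03, -0.05 and -0.18 in rostral, lesion and caudal LC (adjusted p 0.845, 0.821 and 0.122). It fell later: the late values were 11.22, 11.43 and 11.70 in rostral LC and 10.58, 10.92 and 11.20 at the lesion site, against 12.02, 12.01 and 11.96 in uninjured cord. None of these arrays reached the uninjured ones, and the differences were -0.53 in rostral LC (adjusted p 0.000219), -1.08 at the lesion site (0.474-fold, adjusted p 1.82e-06) and -0.58 in caudal LC (adjusted p 3.25e-06).

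Several chaperones of the endoplasmic reticulum rose on the early days, among them Hspa5, Dnajc3, Hsp90b1 and Dnajb11 in all 3 segments. Others of that compartment did not: at the lesion site on day 3 Dnajb12 ran from 7.23 to 7.37, against 7.51 to 7.67 in uninjured cord, and Hspa13 from 9.73 to 9.79, against 9.88 to 10.16, both called lower, while Dnajb9 overlapped uninjured cord. Hspa5 (BiP), the Hsp70 of that compartment, read 13.19, 12.99 and 13.04 at the lesion site on day 3 and ran from 12.28 over 12.42 to 13.10 in rostral LC, against 11.71, 11.55 and 11.59 in uninjured cord, without overlap. The differences were 1.46 (SE 0.153, 2.75-fold, adjusted p 4.03e-10) at the lesion site, 0.90 (SE 0.113, adjusted p 1.29e-09) in rostral LC and 0.71 (adjusted p 9.33e-08) in caudal LC. Late differences were 0.61 at the lesion site, 0.28 in rostral LC and 0.31 in caudal LC. Without the arrays that stood apart the rostral one was 0.24 (adjusted p 0.126), that of the intermediate days 0.24 as well (adjusted p 0.108) and the late caudal one 0.27 (adjusted p 0.0612). Leaving out any of 5 single arrays ended the late rostral call, and with the beta-actin covariate the late caudal difference was 0.15 (adjusted p 0.429).

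Dnajc3, the J-domain partner of BiP that also restrains translation-arresting kinases, read 11.10, 10.92 and 11.21 at the lesion site on day 3, against 8.10, 8.29 and 8.28 in uninjured cord. This was a difference of 2.85 (SE 0.139, 7.21-fold, adjusted p 3.13e-18). In rostral LC the early values of 9.44, 9.79 and 10.59 gave 1.71 (SE 0.118, 3.27-fold, adjusted p 2.03e-17), and caudal LC gave 1.59 (3.02-fold, adjusted p 4.85e-19). Late differences were 0.53 in rostral LC, 1.29 at the lesion site and 0.52 in caudal LC, so Dnajc3 was above uninjured cord at every period and segment measured.

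Hsp90b1 (Grp94), the Hsp90 of the same compartment, read 13.13, 13.07 and 13.09 on day 3 at the lesion site, against 11.74, 11.62 and 11.62 in uninjured cord, a difference of 1.44 (2.71-fold, adjusted p 8.82e-13). It was 0.72 higher in rostral LC and 0.53 in caudal LC on the early days. Dnajb11, another J-domain partner of BiP, read 10.56, 10.25 and 10.56 at the lesion site, against 8.80, 8.83 and 8.82, a difference of 1.64 (3.12-fold, adjusted p 1.4e-16), with 0.92 in rostral LC and 0.82 in caudal LC. Dnajc1, a membrane J-domain protein of that compartment, was 1.85 higher at the lesion site (8.57, 8.70 and 8.81, against 6.77, 6.95 and 6.82). Dnajc22 had the second largest J-domain rise at the lesion site after Dnajc3, with 7.75, 7.84 and 8.14 against 5.55, 5.31 and 5.35 in uninjured cord (2.50, 5.67-fold, adjusted p 7.05e-18), though no uninjured array lay over the filter on low values. Dnajc22 passed that filter through 93 arrays, all of injured cord, so its rise over uninjured cord is given as a description. Its fly counterpart acts in clathrin-mediated endocytosis, and in the rats it was 1.44 higher in rostral LC and 1.30 in caudal LC.

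Of the list of 20 other tested genes of endoplasmic reticulum stress, 16 were called higher and 2 lower in rostral LC on the early days, 16 and 1 at the lesion site, and 16 and 1 in caudal LC. Of all genes 36%, 40.8% and 34.3% were called higher there. Manf, a secreted survival factor of that pathway, was 1.83 higher at the lesion site, 1.30 in rostral LC and 1.24 in caudal LC. Creld2, a disulfide isomerase of the same response, was 2.61 higher at the lesion site and Sdf2l1, a cofactor of Dnajb11, 1.96. By the late days 10 were higher and 1 lower in rostral LC, 16 and 2 at the lesion site, and 9 and 1 in caudal LC, beside 24.9%, 40.4% and 25.2% of all genes higher. Fibroblast and matrix markers were higher beside them: all 8 were called higher at the lesion site on day 3 with a median of 4.18, and the list's level over all days ran from 12.65 to 13.44 in lesion LC, against 8.69 to 8.83 in uninjured cord. Its part in these values was not tested.

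The cytosolic Hsp90ab1 was 0.23, 0.21 and 0.16 higher in rostral, lesion and caudal LC on the early days. Hspd1, the large subunit of the mitochondrial chaperonin, which folds imported proteins, made a small early rise and lay below uninjured cord at the lesion site on the late days. It read 12.85, 12.66 and 12.63 at the lesion site on day 3 and ran from 12.41 over 12.66 to 12.92 in rostral LC, against 12.24, 12.28 and 12.27 in uninjured cord. The groups did not overlap, with differences of 0.45 (adjusted p 1.02e-05) and 0.40 (adjusted p 4.07e-06). On the late days the lesion arrays ran from 11.85 over 11.89 to 11.95, below all uninjured arrays, with a difference of -0.37 (adjusted p 1.9e-05). The co-chaperonin Hspe1 was 0.57 higher on the early days in both rostral and caudal LC (adjusted p 0.000421 and 0.00138), and its lesion difference of 0.31 did not pass (adjusted p 0.115). Late Hspe1 values ran from 11.45 to 12.32 at the lesion site and overlapped the uninjured arrays, 12.18 to 12.62 (-0.46, adjusted p 0.00849).

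Among the J-domain proteins of the cytosol, Dnajb1, the main partner of inducible Hsp70, ran from 9.92 over 10.13 to 10.65 in rostral LC on the early days, against 9.72, 9.37 and 9.63 in uninjured cord. Its differences were 0.60, 0.62 and 0.46 in rostral, lesion and caudal LC, and on the late days 0.59 at the lesion site (adjusted p 5.79e-05). Dnaja1, a class A partner of Hsp70 in the cytosol, was 0.65, 0.63 and 0.51 higher on the early days, though its other probe sets did not all agree in direction in 8 of the comparisons it was called in. Dnajc9, a histone chaperone, was 0.75, 0.93 and 0.76 higher in rostral, lesion and caudal LC on the early days and 0.46, 0.30 and 0.40 higher on the late days. On the early days 6 of 11 class B members were called in rostral LC, 5 at the lesion site and 6 in caudal LC. The class C counts were 16, 18 and 14 of 23, and at the lesion site they divided into 9 higher and 9 lower. The share of all genes called was 67.8%, 74.4% and 65% in the same comparisons.

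J-domain proteins known from neurons were among the lower members. Dnajc6 (auxilin), which uncoats synaptic vesicles, read 8.39, 8.32 and 7.59 at the lesion site on day 3, against 11.49, 11.30 and 11.23 in uninjured cord. The difference was -3.24 (0.106-fold, adjusted p 4.81e-08), and it was -4.05 on the intermediate and -3.13 on the late days. In rostral LC the early values of 9.57, 9.97 and 10.36 also lay below all uninjured arrays (-1.39), and in caudal LC the difference was -1.10. Dnajc27, a small GTPase with a J domain, differed by -2.02, -2.06 and -1.64 from uninjured cord at the lesion site in the 3 periods. Dnajb2, a neuronal chaperone of ubiquitinated clients, gave -1.31, -1.69 and -1.16 there, though its probe sets did not all agree in direction in 9 comparisons. The level of the neuron list, a mean over its 12 tested markers, ran from 7.2 to 9.53 in lesion LC, against 12.20 to 12.38 in uninjured cord. A list of oligodendrocyte and myelin markers was lower too, at 8.41 to 10.21 in lesion LC, against 12.38 to 12.53. The part of either list in these members' values was not tested.

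Of the list of 32 other tested chaperones and heat shock regulators, 17 were higher and 2 lower in rostral LC on the early days, 17 and 6 at the lesion site, and 18 and 1 in caudal LC, beside 36%, 40.8% and 34.3% of all genes higher. On the late days 3 were higher and 7 lower in rostral LC, 5 and 15 at the lesion site, and 5 and 9 in caudal LC, beside 24.9%, 40.4% and 25.2% of all genes higher. Hsf1, the factor that switches on the cytosolic set, was not called on the early days in rostral or caudal LC (0.13 in each, adjusted p 0.433 and 0.428) and was 0.38 higher at the lesion site (adjusted p 0.0258). Serpinh1, the collagen chaperone Hsp47, was 3.41 higher at the lesion site, 2.04 in rostral LC and 1.74 in caudal LC on the early days.

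Late LC arrays were compared with early LC arrays of the same segment, a comparison that needs no uninjured cord. In rostral LC 42 members were called, 10 higher and 32 lower on the late days, where 58.2% of all tested genes were called, 25.6% higher and 32.6% lower. Lesion LC had 33 called, 6 higher and 27 lower, beside 53.6% of all genes with 23.6% higher and 30% lower. Caudal LC had 38, 5 higher and 33 lower, beside 58.2% with 22.7% higher and 35.5% lower. The member medians were -0.21, -0.24 and -0.26. The labels do not say whether the 3 segments came from the same animals. In all 3 segments 19 members were called lower, among them Hspa1a, Hspa5, Dnajc3, Hsp90b1, Hspd1, Hspe1 and Hsph1, and 3 were called higher, namely Dnajb4, Dnajb12 and Dnajc27. How many of all tested genes were called alike in all 3 segments was not counted, so these counts do not set the members apart.

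Hspa1a had the largest late-to-early differences beside the gap, -2.75 in rostral LC (adjusted p 3.22e-11) and -2.36 in caudal LC (adjusted p 1.17e-10). Its difference at the lesion site was -1.43 (adjusted p 0.000182), and in each segment no late array reached an early one. Dnajc3, largest at the lesion site, differed by -1.18, -1.56 and -1.07 in rostral, lesion and caudal LC and Hspd1 by -0.53, -0.82 and -0.32, again without overlap. Dnajb3, best known from testis, had late values from 6.37 to 6.67 in rostral LC, against early values from 7.35 to 7.86, a difference of -0.97, with -0.80 at the lesion site and -1.23 in caudal LC. Hspb1 fell less, by -0.46 in rostral LC (adjusted p 0.00543) and -0.62 in caudal LC (adjusted p 9.31e-05), while its lesion difference of -0.24 did not pass (adjusted p 0.449). Dnajb4, an Hsp70 partner, was higher late, by 0.22 in rostral LC, 0.61 at the lesion site and 0.23 in caudal LC. Dnajb12, a J-domain protein of the endoplasmic reticulum membrane, was higher by 0.25, 0.29 and 0.22, but with the mean of its probe sets the lesion difference was -0.08. With RT1-CE10 alike the caudal late-to-early differences were -0.13 for Hspa5 (adjusted p 0.386) and 0.08 for Dnajc27 (adjusted p 0.547). Of the other chaperones 1 was higher and 25 lower in rostral LC, 2 and 21 at the lesion site, and 0 and 27 in caudal LC.

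**Figure D3:**
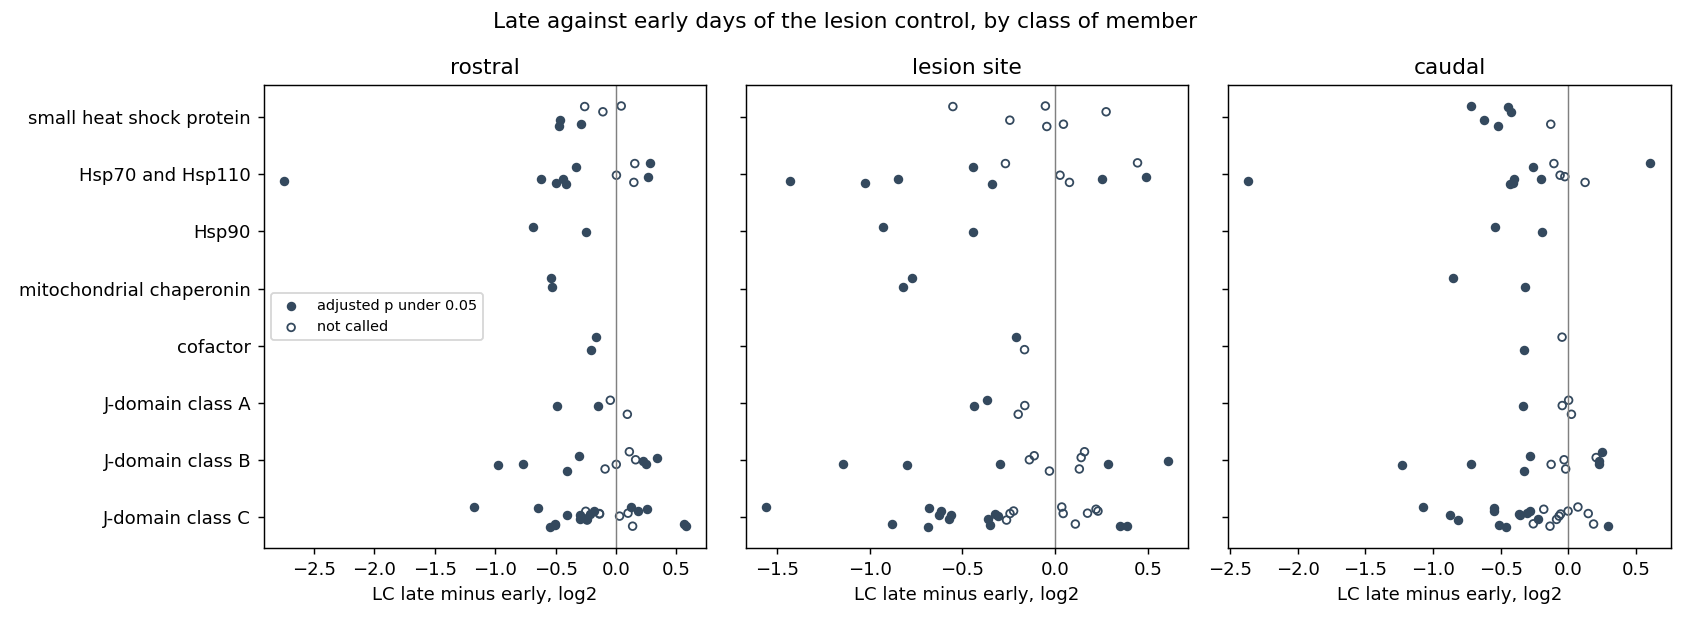
Log2 difference of late (days 60 and 90) minus early (days 1 and 3, at the lesion site day 3) LC arrays, 1 point a tested member, by class, in 3 panels for the segments. Filled points have an adjusted p under 0.05. More members lie below 0 than above it in each segment, with medians of -0.21, -0.24 and -0.26.

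The day on which the mean of a member in LC was highest was day 1 for 15 and day 3 for 24 of the 61 tested members in the rostral segment, and day 1 for 24 and day 3 for 20 in the caudal segment. In lesion LC 36 were highest on day 3, the earliest day measured there. The same was not counted for all tested genes, so these counts do not set the members apart.

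Lesion LC was set against the neighbouring rostral and caudal LC segments over the days that all had, 18 arrays against 36. The fit took arrays of the 3 segments as independent, which the labels do not settle, so its p-values may be too small or too large. Of the 61 members 55 were called, 19 higher and 36 lower at the lesion site, where 86.7% of all tested genes were called, 48.7% higher and 38% lower. Hspb1 ran from 9.28 over 10.86 to 12.14 at the lesion site, against 11.92, 12.84 and 13.61 beside it, a difference of -1.94 (SE 0.0833, 0.261-fold, adjusted p 2.27e-44). The ranges overlapped only between 11.92 and 12.14. Dnajc6 ran from 6.42 over 7.75 to 8.44, against 9.57, 10.38 and 10.81 (-2.60, adjusted p 1.39e-53), Hspa4l from 6.91 over 7.90 to 8.44, against 9.39, 10.10 and 10.30 (-2.26, adjusted p 4.58e-61), and Hspa2 from 7.40 over 8.84 to 9.53, against 9.83, 10.49 and 10.99 (-1.81, adjusted p 5.28e-49). None of these 3 overlapped. The 12 neuron markers were all lower at the lesion site too, with a median of -3.18, and the 8 fibroblast and matrix markers higher with a median of 2.13. Between rostral and caudal LC limma called 0 members, beside 0.506% of all genes, with 2 members at an unadjusted p under 0.05 and 2 called with array weights.

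Averaged over the days, NT3 moved few members against LC beside the gap. It gave 2 called members in the rostral segment, 1 higher and 1 lower, where 2.77% of all tested genes were called, 1.16% higher and 1.61% lower. Caudally it gave 4, 2 higher and 2 lower, beside 9.76% of all genes with 5.91% higher and 3.84% lower. In the rostral segment these were Dnajb14 (0.18, adjusted p 0.046) and Hspa1a. The caudal ones were Hspa12a (0.15, adjusted p 0.00684), Dnajc27 (0.12, adjusted p 0.0481), Hspb8 (-0.14, adjusted p 0.0339) and Hspa1a. Leaving out any of 32 single arrays ended the Dnajb14 call, any of 28 the Dnajc27 call and any of 9 the Hspb8 call, and over the days with RT1-CE10 alike Hspb8 differed by -0.06 (adjusted p 0.626). ET against LC gave 12 in the rostral segment, all lower, beside 22.8% of all genes with 7.9% higher and 14.9% lower. Among them were Hspa4l (-0.25, adjusted p 0.000208), Dnajc5, the cysteine string protein of synaptic vesicles (-0.20, adjusted p 5.68e-06), and Hsph1 (-0.17). Over the days with RT1-CE10 alike Hspa4l differed by -0.16 (adjusted p 0.185) and Hsph1 by -0.14 (adjusted p 0.259), and with the beta-actin covariate Hsph1 differed by -0.13 (adjusted p 0.0762). In the caudal segment 1 member was called, Hspb8 (-0.15, adjusted p 0.0471), beside 3.5% of all genes with 1.72% higher and 1.79% lower, and leaving out any of 24 single arrays ended that call.

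NT3 against ET gave 18 called members in the rostral segment, 12 higher and 6 lower, beside 30.2% of all genes with 17.4% higher and 12.8% lower. It gave 8 in the caudal segment, 7 higher and 1 lower, beside 8.38% with 4.65% higher and 3.73% lower. In the rostral segment the higher ones included Dnajc6 (0.29, adjusted p 7.37e-06), Hspa4l (0.27) and Hspa12a (0.25), each higher in NT3 on 7 of 7 days. The lower ones were Hspa1a, Hspb3 (-0.21), Hspb2 (-0.19), Hspb8, Hspb7 and Dnajc18 (-0.11 each). Hspb3 and Hspb2 lay under the filter on low values in every rostral NT3 and ET array. With the mean of 13 skeletal muscle genes as a covariate Hspb3 differed by -0.01 (adjusted p 0.915) and Hspb2 by -0.15 (adjusted p 0.14). Hspb8 differed by -0.78 on day 1 and by -0.11 to 0.15 on the other days, and by -0.01 (adjusted p 0.931) over the days with RT1-CE10 alike. In the caudal segment the higher ones included Dnajb6, a suppressor of polyglutamine aggregation (0.24), and Hspb6 (0.23), and Hspa1a was the lower one. Leaving out any of 3 single arrays ended the Dnajb6 call, any of 8 the Hspb6 call and any of 27 the rostral Hspb7 call, and over the days with RT1-CE10 alike caudal Dnajb6 differed by 0.15 (adjusted p 0.232). Both NT3 comparisons use the same NT3 arrays.

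Hspa1a was lower with NT3 beside the gap on days 1 and 3, by the single-day comparisons given after this paragraph. Averaged over the days, NT3 against LC differed by -0.72 (SE 0.156, adjusted p 0.0064) in the rostral segment, with NT3 higher on 3 of 7 days, and by -0.51 (SE 0.141, adjusted p 0.0166) in the caudal segment, with NT3 higher on 4 of 7 days. Against ET the differences were -0.70 (adjusted p 0.000607) and -0.48 (adjusted p 0.0278), with NT3 higher on 1 of 7 days in both segments. An F-test for unequal NT3 minus LC differences among the days called 21 members in the rostral segment, with 28.2% of all genes, 32 at the lesion site, with 50.6%, and 10 in the caudal segment, with 7.18%. For Hspa1a its adjusted p was 0.000291, 0.000559 and 0.000243. NT3 minus LC by day was -2.27, -2.36, 0.14, -0.58, 0.61, 0.20 and -0.77 in the rostral segment on days 1, 3, 10, 20, 30, 60 and 90. The caudal differences were -2.18, -2.05, 0.12, 0.07, 0.74, 0.31 and -0.59.

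On day 1 the rostral arrays of Hspa1a read 9.10, 8.91 and 8.61 with NT3 and 10.86, 9.35 and 11.53 with ET, against 10.25, 11.06 and 12.14 in LC. The caudal arrays read 8.30, 8.38 and 8.33 with NT3 and 10.14, 9.95 and 9.33 with ET, against 11.30, 9.47 and 10.79 in LC. No NT3 array reached an ET or LC array of its segment, and all NT3 arrays lay above the uninjured ones. The comparisons of single days were added after the data had been seen. NT3 against LC on day 1 was -2.27 in the rostral segment (SE 0.412, 0.207-fold, adjusted p 5.72e-05) and -2.18 in the caudal segment (SE 0.372, 0.221-fold, adjusted p 0.000107). Of all 61 members 15 were called in that rostral comparison, 9 higher and 6 lower, beside 30.6% of all genes with 13.7% higher and 17% lower. The caudal one called 4, 1 higher and 3 lower, beside 7.99% with 3.36% higher and 4.62% lower. Dnajb6 was 0.84 higher (adjusted p 2.71e-05) and Hspb8 differed by -0.53 (adjusted p 0.000127) in the rostral segment.

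On day 3 the rostral arrays of Hspa1a read 7.95, 8.35 and 8.12 with NT3 and 9.88, 10.69 and 9.82 with ET, against 12, 9.81 and 9.70 in LC. The caudal arrays read 8.37, 8.09 and 8.38 with NT3 and 9.86, 10.67 and 9.71 with ET, against 11.00, 9.38 and 10.59 in LC. NT3 lay below both other groups without overlap. NT3 against ET was -1.99 in the rostral segment (SE 0.412, 0.252-fold, adjusted p 0.00392, and 0.0741 when only the groups compared were fitted) and -1.80 in the caudal segment (SE 0.372, 0.287-fold, adjusted p 0.00287). Beside it Hspa5 differed by -0.76 in each segment (adjusted p 0.00038 and 0.000122) and Dnajc3 by -0.55 and -0.46. When only the groups compared were fitted, the adjusted p of rostral Hspa5 was 0.1 and that of Dnajc3 was 0.131 and 0.0865. In the caudal segment Hsph1 (-0.62), Hsp90b1 (-0.40), Dnajb1 (-0.37) and Dnajb11 (-0.37) were lower as well, and Hspb6 (0.76), Hspb2 (0.53) and Dnajc9 (0.33) were higher. That fit ended the calls of Hsp90b1, Dnajb1, Dnajb11, Hspb2 and Dnajc9 (adjusted p 0.177, 0.147, 0.144, 0.109 and 0.149). With the mean of probe sets Dnajb1 was not called either (adjusted p 0.13). Hspb2 lay under the filter on low values in every caudal array. The counts were 5 members in the rostral segment, all lower, beside 4.92% of all genes with 3.18% higher and 1.74% lower. They were 11 in the caudal segment, 3 higher and 8 lower, beside 3.96% with 2.4% higher and 1.56% lower. In the caudal segment leaving out 1 array ended the Dnajb1 call for 5 arrays, Hsp90b1 and Hspb2 for 4 each, Dnajc3 and Hspb6 for 3 each, and Dnajb11 and Dnajc9 for 2 each.

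**Figure D4:**
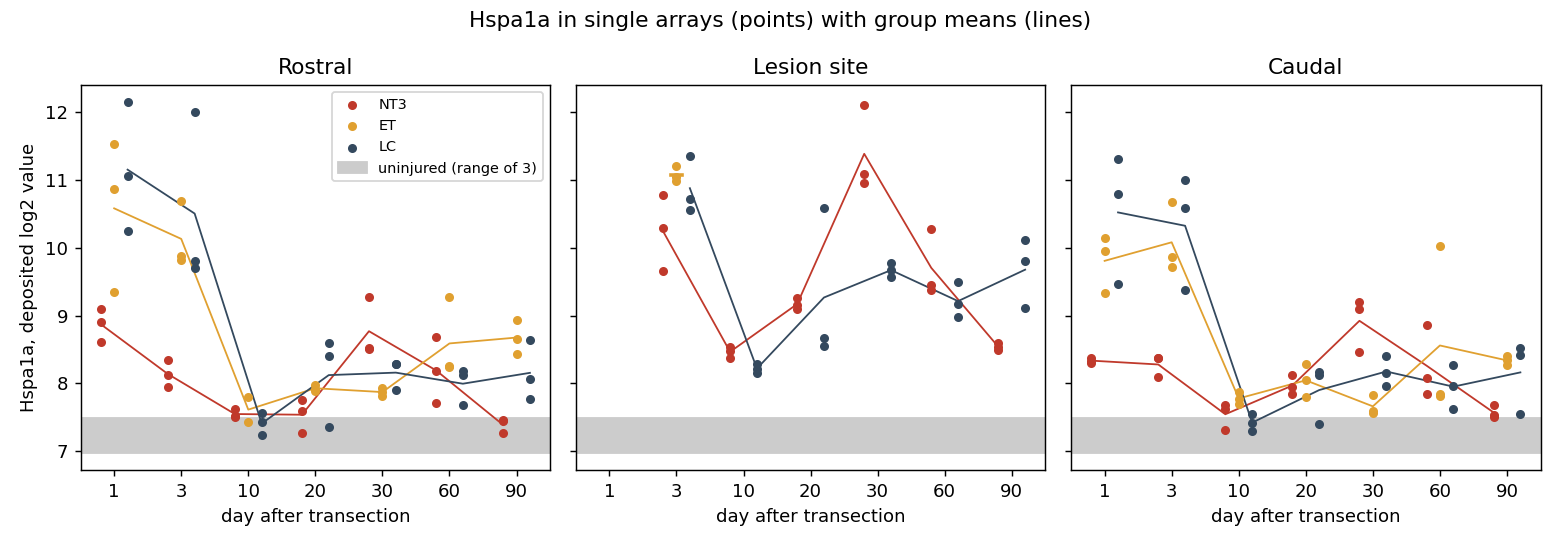
Log2 values of Hspa1a in single arrays (points) by day after transection, in 3 panels for the segments, coloured by treatment, with lines through group means and the range of the 3 uninjured arrays as a grey band; sampling days are drawn at even steps. On days 1 and 3 the NT3 arrays of the rostral and caudal segments lie below all ET and LC arrays, and on day 30 the 3 NT3 arrays of the lesion site lie above the LC arrays.

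A gene of another kind divided the arrays by whole groups. RT1-CE10, a class I gene of the major histocompatibility complex, lay above 9 in 58 arrays and not in 109. It did so in all arrays of 17 groups, in none of 35 groups and in some arrays of 4 groups. Hspa1a lies in the same complex. On day 1 RT1-CE10 averaged 6.74 in rostral NT3 and 10.84 in rostral ET, against 10.80 in rostral LC, and the caudal values were 6.74 in NT3 and 10.75 in ET, against 10.59 in LC. On day 3 no NT3 or ET array of the rostral or caudal segment lay above 9, while 1 rostral and 2 caudal LC arrays did. Whether what divided the groups in RT1-CE10 had a part in the Hspa1a values of day 3 was not tested. Over the days with RT1-CE10 alike in NT3 and LC (10, 20, 30 and 60), Hspa1a differed by 0.09 in the rostral segment (adjusted p 0.941) and 0.31 in the caudal segment (adjusted p 0.355). Those days leave out days 1 and 3, so time and RT1-CE10 cannot be told apart for NT3 against LC. Against ET, with days 3, 10, 20, 30 and 90, the differences were -0.57 (adjusted p 0.033) and -0.32 (adjusted p 0.206).

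NT3 against LC at the lesion site, with 18 arrays each, gave 22 called members, 12 higher and 10 lower, where 41.9% of all tested genes were called, 19% higher and 22.9% lower. The higher ones include Hspb3 and Hspb2, which passed the filter through these NT3 arrays alone. Their place among the higher members is therefore a description and not a test. Hspb3, a small heat shock protein of muscle, ran from 4.70 over 5.52 to 8.19 with NT3, against 4.51, 4.87 and 6.25 in LC, a difference of 0.88. Hspb6 ran from 7.57 over 8.30 to 9.28, against 6.84, 7.63 and 8.75 in LC (0.64, SE 0.118, 1.56-fold, adjusted p 5e-05). Hspb1 ran from 10.05 over 11.55 to 12.41, against 9.28, 10.86 and 12.14 (0.50, adjusted p 0.00138). The groups overlapped for all 3, though the NT3 mean of Hspb6 was the higher on 6 of 6 days and that of Hspb1 on 5 of 6. Hspb2 differed by 0.30, and Hspb8 differed by 0.01 (adjusted p 0.948).

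Skeletal muscle genes moved with these members. The mean of the 13 tested muscle genes ran from 6.79 over 9.14 to 10.85 with NT3, against 5.67, 6.96 and 9.86 in lesion LC and 6.48 to 6.61 in uninjured cord. Hspb1 differed by 0.34 (adjusted p 0.141), Hspb3 by 0.67 and Hspb2 by 0.21 over the days with RT1-CE10 alike. With the muscle mean as a covariate Hspb6 differed by 0.03 (adjusted p 0.898) and Hspb1 by 0.45 (adjusted p 0.0881). Hspb3 differed by -0.25 and Hspb2 by -0.26 in that fit. Both passed the filter through lesion NT3 arrays alone, so these values are a description as well. The fit called 11 members in place of 22. The share of all tested genes called in it is not given here, so the drop does not set the members apart. Muscle lies beside the cord, and whether muscle tissue was in the samples was not tested.

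**Figure D5:**
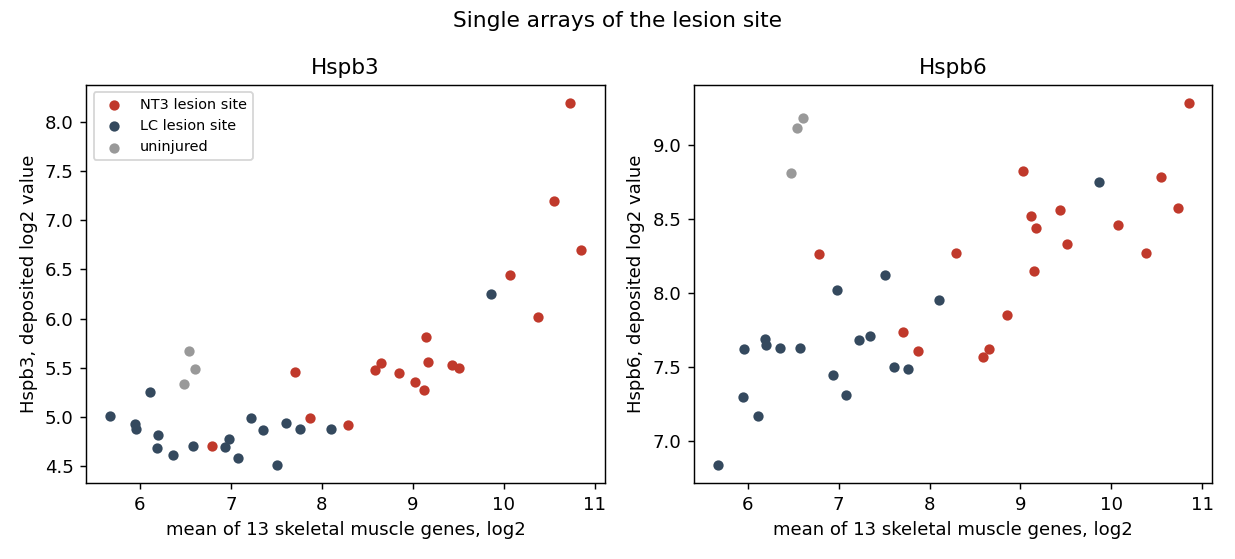
Log2 values of Hspb3 (left) and Hspb6 (right) against the mean log2 value of 13 skeletal muscle genes in single arrays (points) of the lesion site with NT3 or LC and of uninjured cord. The NT3 arrays reach further along the muscle axis, to 10.85, and the highest Hspb3 values, up to 8.19, are among them. Hspb3 passed the filter on low values through 3 NT3 arrays of the lesion site alone, so its panel is a description.

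The lower members at the lesion site included Dnajc22, the cytosolic Dnajb1 and some chaperones of the endoplasmic reticulum. Dnajc22 ran from 6.15 over 7.0 to 8.12 with NT3, against 6.72, 7.57 and 8.14 in LC, a difference of -0.45 (SE 0.0515, 0.733-fold, adjusted p 2.78e-08). Dnajc3 ran from 8.90 over 9.62 to 10.68, against 9.30, 9.80 and 11.21 (-0.38, adjusted p 2.72e-06), and its NT3 mean was the higher on 0 of 6 days. The groups overlapped for both. Dnajb11 (-0.27), Hsp90b1 (-0.22, adjusted p 0.000277), Dnajc1 (-0.18), Dnajc10 (-0.16), Dnajb1 (-0.15) and Dnajb9 (-0.14) were lower too, the last 2 with calls that ended without any of 10 and of 11 single arrays, while Hspa5 differed by -0.10 (adjusted p 0.182). Over the days with RT1-CE10 alike Hsp90b1 differed by 0.10, Dnajb1 by 0.08, Dnajb9 by 0.01, Dnajc10 by -0.03 and Dnajc1 by -0.11, none of them called (adjusted p 0.272, 0.478, 0.922, 0.75 and 0.108). With the muscle covariate Hsp90b1 (-0.20, adjusted p 0.0515), Dnajc10 (-0.12), Dnajb9 (-0.06) and Dnajb1 (-0.02) were not called either.

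Averaged over the days, Dnajc6 was 0.46 (adjusted p 0.0369), Hspa12a 0.36 (adjusted p 0.00304) and Hspa2 0.28 higher with NT3 at the lesion site, while Hspa4l differed by 0.09 and Dnajc5 by -0.04 without a call. Their differences changed sign by day: on day 3 they were -0.99 for Dnajc6, -1.37 for Hspa12a and -0.49 for Hspa2, and the NT3 mean was the higher on 3, 5 and 4 of 6 days. On the days with RT1-CE10 alike Dnajc6 differed by 0.20 (adjusted p 0.574) and Hspa2 by 0.27 (adjusted p 0.205). The call ended without any of 13 single arrays for Dnajc6 and any of 17 for Hspa2. Without the arrays that stood apart Hspa2 differed by 0.17 (adjusted p 0.146). The level of the neuron list ran from 7.38 over 9.19 to 10.36 with NT3, against 7.2, 8.1 and 9.53 in LC. That of the oligodendrocyte and myelin list ran from 8.66 over 9.83 to 10.62, against 8.41, 8.99 and 10.21. The part of either list in these values was not tested.

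Hspa1a averaged over the days did not differ between NT3 and LC at the lesion site beyond its error (0.10, adjusted p 0.62), but single days went opposite ways. The differences on days 3, 10, 20, 30, 60 and 90 were -0.64, 0.25, -0.10, 1.71, 0.49 and -1.14. On day 30 the arrays read 11.09, 12.10 and 10.96 with NT3, against 9.77, 9.57 and 9.67 in LC. No arrays overlapped, and the difference of 1.71 was 3.27-fold (SE 0.351, adjusted p 0.000636) in the comparison added after the data had been seen, where 12 members were called, 10 higher and 2 lower, beside 18.1% of all genes with 9.86% higher and 8.24% lower. On day 90 the order was the other way, with 8.59, 8.49 and 8.54 with NT3, against 9.11, 9.81 and 10.11 in LC. RT1-CE10 lay above 9 in all arrays of day 30, and on day 90 in the LC arrays only. On day 3, where ET was sampled as well, Hspa1a read 9.66, 10.29 and 10.78 with NT3 and 11.04, 10.99 and 11.20 with ET, against 11.35, 10.72 and 10.56 in LC, and the 3 NT3 arrays lay below the 3 ET arrays.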

How the data were processed

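All 167 arrays in 56 groups were used. The submitters' processing notes name GCOS, RMA and Affymetrix Expression Console, and whether RMA was run on all arrays at once is not given in the sources used here. The authors deposited log2 values for 31099 probe sets, from 2.63 to 15.0, which were taken as they stand. Of these 57 were controls, 20826 had 1 gene symbol, 436 several and 9780 none; of those with 1 symbol 20758 matched RefSeq and 0 symbols changed. The probe set with the highest mean stood for a gene, and 12044 of 14217 genes, those with 3 or more arrays over that array's 40th percentile, were tested.

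Each segment was fitted together with the uninjured arrays (limma 3.58.1, R 4.3.3, 1 mean per group), and contrasts of means were tested two-sided with moderated statistics and Benjamini-Hochberg adjustment over all tested genes, threshold 0.05. The script was tested on simulated data. Members, gene lists, periods and alternatives were chosen with earlier results of these data known. Up to 8 called members with the largest positive and 8 with the largest negative difference were eligible to be named in each comparison, and Hspa1a, Hspb1, Hspb8, Hsph1, Hspa5, Hspd1 and Dnajb1 always; others named by role were chosen after their values were seen. Lists are described by counts, medians and mean levels, with no test; the mean of the muscle list was also a covariate. Of 235 called values of members with several probe sets, all other probe sets shared the direction in 152. The number of arrays limits the precision. Alternatives are under the closing section.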

Additional observations from a re-analysis of the deposited data

Results flagged for a closer look

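The size of NT3 minus LC differed between days, by a moderated F-test, for 21 members in the rostral segment, 32 at the lesion site and 10 in the caudal segment. In each of the 3 segments it did so for 6 members, whose highest adjusted p over the segments was 0.000559 for Hspa1a, 0.0121 for Hspa5, 0.0156 for Dnajb1, 0.0167 for Hsp90b1, 0.022 for Dnaja1 and 0.0221 for Hspa12a. Over the days with RT1-CE10 alike in NT3 and LC the counts were 0, 1 and 0. Genes other than members were not counted for a call in all 3 segments. No group held 4 or more arrays, so single arrays were not tested for standing apart in their group.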

How the results depend on the processing

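With array weights (whose estimation stopped before its tolerance was met) more members were called: 44 in rostral LC on the late days against uninjured cord, 10 and 12 in rostral and caudal NT3 against LC, 34 and 14 in NT3 against ET, 8 in caudal ET against LC, 55 and 44 in the tests by day, 2 between rostral and caudal LC, and 24, 16, 9 and 28 on the single days (rostral and caudal day 1, rostral day 3, lesion day 30). Over the days with RT1-CE10 alike the counts were 1 and 2 in rostral and caudal NT3 against LC, 4 in caudal NT3 against ET, 1 in rostral and 0 in caudal ET against LC, and 0, 1 and 0 by day. These days are fewer, and the comparisons of early LC with uninjured cord, of late with early lesion LC and of day 1 could not be run. There Hspa1a in NT3 against LC was 0.091 and 0.31, Dnajb1 0.081, Dnajb9 0.013 and Hsp90b1 0.10 at the lesion site, and Hspa12a late against early in rostral LC -0.063. With the beta-actin covariate the caudal late count was 21, rostral NT3 against LC 1 and caudal ET against LC 2. With the muscle covariate lesion NT3 against LC gave 11, rostral and caudal NT3 against ET 11 and 5, caudal ET against LC 0, Hspb2 -0.26 and Hspb3 -0.25. With the mean of probe sets rostral and caudal NT3 against LC gave 1 and 2, caudal ET against LC 0, Dnajc5 in early caudal LC 0.030 and Dnajb12 late against early at the lesion site -0.076. Fits of only the groups compared gave 1 in rostral NT3 against LC, 0 in caudal ET against LC, 0 and 4 in rostral and caudal NT3 against ET on day 3, 2 in caudal NT3 against LC on day 1 and 7 at the lesion site on day 30. Caudal ET against LC gave 0 without the low filter and with quantile normalization, and 2 with a 60th percentile filter or 75th percentile scaling; rostral NT3 against LC gave 1 without the filter and in 1 fit of all arrays; lesion day 30 gave 7 with 75th percentile scaling and 19 in 1 fit. The share of all tested genes called is not given for these alternatives, so the counts do not set the members apart. The causes were not tested.

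Leaving out 1 array at a time gave 1 to 5 in rostral and 2 to 5 in caudal NT3 against LC, 4 to 10 in caudal NT3 against ET, 0 to 5 in caudal ET against LC, 6 to 16 by day in the caudal segment, 9 to 17 and 2 to 5 on day 1, 3 to 6 and 4 to 14 on day 3, and 6 to 13 at the lesion site on day 30. With the replicate block 363 of 365 called values of named members were still called, and no count moved by over 1.5 times. The exceptions were Dnajc27 in caudal NT3 against LC (0.12, adjusted p 0.054) and Hspa2 at the lesion site (0.23, adjusted p 0.0715). Replicate numbers are not stated to pair arrays. The agreement of deviations between rostral and caudal LC arrays had a median of 0.25 for the same number and -0.07 for other numbers. It passed 0.1 in 13 of 21 pairs with the same number.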
